A study of Mus musculus with 14 samples.

Results

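Pancreas was compared with stomach in signature-tag libraries of the mouse, with 1 female and 1 male library of each organ. These 4 libraries are all those titled pancreas or stomach among the 14 libraries of the series, which covered 7 tissues in both sexes. Total RNA of C57BL6 mice, with no treatment or engineered allele named in the labels, was reverse transcribed, the cDNA was cut with DpnII at GATC, and a signature of 20 bases beginning at a site near the 3′ end of each transcript was sequenced and counted. The 4 libraries are pancreas female, pancreas male, stomach female and stomach male, and values of an organ are given below for the female library and then for the male one. Their labels give no age, no number of animals and no statement that libraries come from separate animals, so p-values measure only the spread between these libraries. Whole organs were used as far as the labels say, and in such bulk RNA fewer cells of a type and less RNA per cell cannot be told apart. Of 22221 genes counted in the whole series, 17320 had a count in these 4 libraries and 8218 passed the filter on low counts and were tested.

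The exocrine pancreas is built of acinar cells, which pack digestive enzymes and their inactive precursors into zymogen granules and release them into ducts that add bicarbonate. Islets of endocrine cells are scattered among the acini. The glandular stomach lines its pits with mucus cells and its glands with parietal cells, which pump acid, and chief cells, which store pepsinogen. In the mouse the upper chamber, the forestomach, is covered by a keratinised squamous epithelium, and the whole wall is wrapped in smooth muscle.

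Library totals were 3003859 and 2915699 counts in pancreas, against 3140095 and 2194028 counts in stomach. Tags read as sense tags of a gene held 2766056 and 2651622 counts in pancreas, against 2307384 and 1922511 counts in stomach, and levels below are these counts scaled to the same depth (CPM, the sum of all genes of a library being 1e6). Where a gene was not seen, its true level may reach 3 counts, or 1.08 and 1.13 CPM in pancreas, against 1.30 and 1.56 CPM in stomach. This floor and the intervals given later cover counting error only. Each transcript gives its tag once whatever its length, so CPM is not divided by length.

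The 2 stomach libraries stood apart from each other and each from pancreas in its own way. In female stomach, tags without any assignment made up 18.6% of the counts, against 4.01% and 5.23% in the pancreas libraries and 4.18% in male stomach. Tags that differ by 1 base from a very abundant tag had a median of 10.9% of that tag's counts in female stomach, over those of the 20 most abundant genes with at least 1000 counts, Prss2 and Try5 left out, against 3.85% and 4.14% in pancreas and 2.80% in male stomach. Genes whose main tag is poor in G and C were also higher in female than in male stomach. The female minus male difference had a median of 1.33 on the log2 scale over 1179 genes with 0 to 4 G or C among the 16 bases after GATC, and of -1.10 over 653 genes with 11 to 16. The same medians in pancreas were -0.14 and 0. Spearman correlations over genes were 0.846 between the pancreas libraries, 0.610 between the stomach libraries. They were 0.558 and 0.556 between pancreas and female stomach, and 0.391 and 0.362 between pancreas and male stomach, so the male stomach library was the further from pancreas. The mean number of G and C among the 16 bases was 7.52 and 7.58 in pancreas, against 6.76 and 8.55 in stomach, with the stomach libraries on either side of pancreas. In the gene test below, the median log2 fold of pancreas over stomach was -0.02 over the genes with 0 to 4 G or C. It was -1.07 over those with 11 to 16. The part of this pattern in the results below was not tested beyond the values given without each library and with a tag GC offset.

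**Figure D1:**
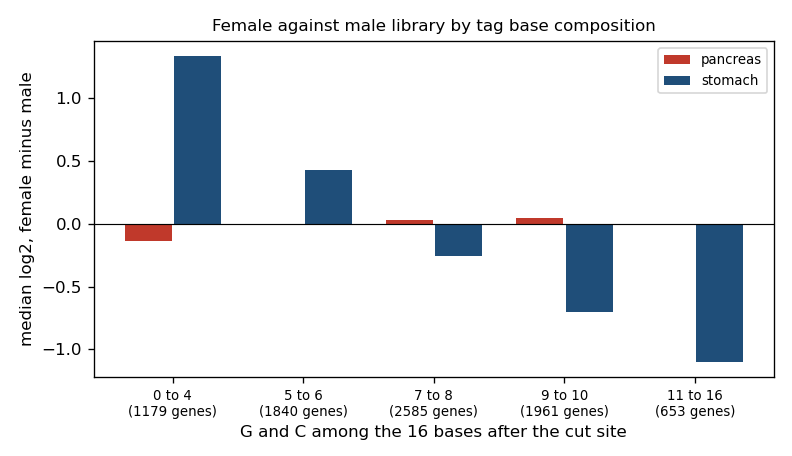
Female minus male difference in level (log2, y axis) of the genes tested, grouped by the number of G and C among the 16 bases after GATC in the main tag (x axis), for pancreas and for stomach. The stomach medians run from 1.33 in the group with the fewest G and C to -1.10 in the group with the most, while the pancreas medians lie between -0.14 and 0.05.

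The main tags of the genes on which the results turn show what was counted. The sequences below are those of an acinar protease, the leading amylase, 2 genes high in both organs, 3 genes of the gastric mucosa, and 2 genes of the duct and muscle lists. Capitals mark the DpnII site.
Ctrb1: GATCttggaagccaactaag
Amy2a: GATCagaatgactggattgg
Clps: GATCacgcagttagctgggt
Pla2g1b: GATCacctgcagcgccaaaa
Pgc: GATCctcggggatgtcttcc
Gkn2: GATCctgggagtctccatct
Muc5ac: GATCacccaagggtcccatg
Krt19: GATCgccacctaccgcagcc
Csrp1: GATCaataaagcaatttaga
The tag of Ctrb1 had 325265 and 444247 counts in pancreas, against 1339 and 1305 counts in stomach. The tag of Pgc had no count in either pancreas library, against 186301 and 432245 counts in stomach. Both organs thus carried the defining marker of their label.

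Trypsinogens are encoded by a family of near-identical genes, and their tags show how close the members are. The next 4 sequences are shown for that reason. Capitals mark the bases at which Prss2 differs from Try5 and Try4 from 2210010C04Rik.
Prss2: gatctgtgttggcttcctGg
Try5: gatctgtgttggcttcctAg
Try4: gatcactGgTaacatgGtct
2210010C04Rik: gatcactAgCaacatgTtct
Counted from the first base of the tag, Prss2 and Try5 differ by G19A only, and Try4 and 2210010C04Rik by G8A, T10C and G17T. A tag with no assignment that differs from that of Prss2 at the same base as Try5 had 6377 and 7804 counts in pancreas, against 363 and 2 counts in stomach. The separate levels of Prss2 and Try5 are therefore uncertain, and the part of misread bases in them was not tested. Of the 262 genes called higher in pancreas below, 6 (2.29%) had a main tag 1 base away from that of another of the 20 most abundant genes. None of the 629 genes called lower did, and over all 8218 genes tested these 6 were the only ones (0.073%).

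Pancreatic RNA was concentrated in very few genes. The most abundant gene held 34.3% and 24.7% of the gene counts in pancreas, against 9.34% and 23.4% in stomach. The 20 most abundant held 91.3% and 92.1% in pancreas, against 48.8% and 53.1% in stomach. It took 3 genes to reach 50% of the counts in each pancreas library, against 24 and 13 genes in stomach. The number of genes with any count was 10846 and 9519 in pancreas, against 15579 and 15223 in stomach.

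**Figure D2:**
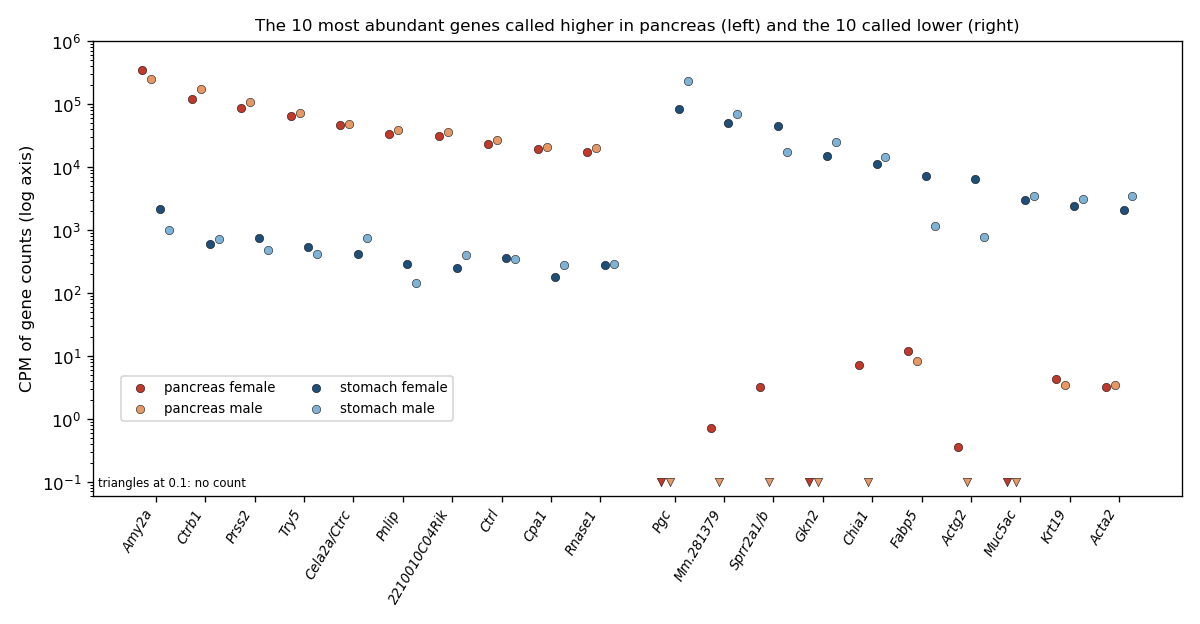
Levels (CPM, log axis) of the 10 genes called higher and the 10 called lower in pancreas with the highest levels in the organ where they are higher, with 1 point per library. The gene shown by its UniGene number is the cluster titled caspase 6. Amy2a reaches 343489 and 246815 CPM in pancreas, and Pgc reaches 84495 and 234060 CPM in stomach with no count in pancreas.

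With the enzymes filling the pancreas libraries, the fold of most other genes depends on how libraries are scaled. The TMM method of edgeR sets the bulk of genes level and gave a median log2 fold (pancreas over stomach) of -0.33 over the genes tested. Scaling to the library totals gave a median of -3.53, a shift of 3.20. Folds below are TMM folds, as log2 ± standard error, beside the CPM of each library, and a gene whose sign turns with library totals is named as such.

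Of 8218 genes tested, 891 (10.8%) were called at a Benjamini-Hochberg adjusted p under 0.05 in edgeR's quasi-likelihood test and a fold of at least 2. Of these, 262 (3.19% of those tested) were higher in pancreas and 629 (7.65%) were lower. With library totals the calls were 77 higher and 7647 lower, and 147 of the 262 kept their sign and 115 changed it, while all 629 kept theirs. Of the 629, 355 had no count in either pancreas library, and of the 262, 5 had none in either stomach library. On the TMM scale the libraries of the organs did not overlap for 259 of the genes called higher and 627 of those called lower, against 1685 (20.5%) and 2770 (33.7%) of all genes tested. Fits without a library were filtered anew, so their counts, here and in the lists below, come from other sets of genes. Those counts are not to be read beside 8218, 3.19% or 7.65%. The count of calls rested heavily on single libraries. It was 127 without the female and 156 without the male pancreas library, and 2930 without the female and 1862 without the male stomach library. Of the 94 tested genes described here, 26 lost their call without the female and 30 without the male pancreas library, and they are named in the account of the processing choices. An exact permutation test of 2 libraries against 2 cannot give a p below 0.333 for a single value, so all p-values here come from the fit across genes.

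**Figure D3:**
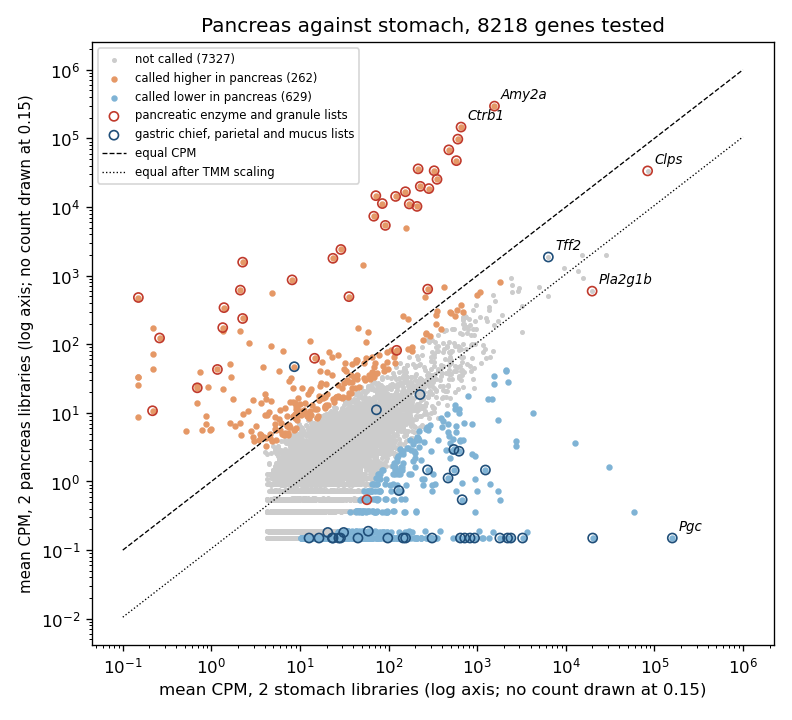
Mean level in stomach (x axis) against mean level in pancreas (y axis), both as CPM on log axes, with 1 point per gene tested and the called genes coloured by direction. Ctrb1 and the other enzymes lie far above the diagonal, Pgc and the mucus genes lie along the bottom, and Clps lies close to the diagonal at 33606 CPM in pancreas and 83888 CPM in stomach.

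The proteases were the largest block of pancreatic RNA beside the amylases. All 14 tested genes of the list of proteases and their inhibitors were called higher in pancreas, with a median log2 fold of 9.96, against -0.33 over all genes tested, and all stayed called without any 1 library. Among all genes tested, 3.19% were called higher. With library totals the median of these 14 genes was 6.68. Their summed level was 423760 and 516197 CPM in pancreas, against 3436 and 3946 CPM in stomach.

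Ctrb1, which encodes chymotrypsinogen B, had 120205 and 172190 CPM in pancreas, against 606 and 709 CPM in stomach. It was 222-fold higher by CPM, with a log2 fold of 11.07 ± 1.16 (adjusted p = 1.07e-08). Prss2, an anionic trypsinogen, had 85636 and 109415 CPM in pancreas, against 737 and 473 CPM in stomach, a log2 fold of 10.60 ± 1.12 (adjusted p = 1.1e-08). Both pancreas libraries stood far above both stomach libraries for each of these genes. Try5, another trypsinogen, had 65015 and 71163 CPM in pancreas, against 543 and 414 CPM in stomach. The trypsinogen 2210010C04Rik had 31634 and 35906 CPM in pancreas, against 250 and 403 CPM in stomach. Try4, chosen after its values were seen because its tag is close to that gene's, had 506 and 723 CPM in pancreas, against 2.17 and 2.08 CPM in stomach. Its log2 fold of 11.38 was thus as large as those of far more abundant trypsinogens. The cluster shared by Cela2a and Ctrc, an elastase and a chymotrypsin that the files do not separate, had 46477 and 48296 CPM in pancreas, against 416 and 748 CPM in stomach. Ctrl, a chymotrypsin-like protease, had 23302 and 27312 CPM in pancreas, against 353 and 352 CPM in stomach. Cpa1, carboxypeptidase A1, which trims the carboxyl ends of peptides, had 19547 and 20471 CPM in pancreas, against 176 and 279 CPM in stomach.

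Enzymes that digest starch, fat and nucleic acids were also higher in pancreas, with 2 exceptions. Of 10 tested members of that list, 8 were called higher, beside 3.19% of all genes tested, and 2 were not called. The median log2 fold of the members was 9.40 (6.11 with library totals). Their summed level was 463262 and 371052 CPM in pancreas, against 106677 and 105556 CPM in stomach, and most of the stomach sum came from those 2 genes.

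Amy2a, pancreatic amylase, was the most abundant gene of the comparison, with 343489 and 246815 CPM in pancreas, against 2136 and 998 CPM in stomach. It was 188-fold higher by CPM, with a log2 fold of 10.77 ± 1.2 (adjusted p = 3.24e-08). Pnlip, pancreatic triglyceride lipase, had 33702 and 38256 CPM in pancreas, against 286 and 145 CPM in stomach, a log2 fold of 10.64 ± 1.07 (adjusted p = 5.07e-09). Cel, the bile salt-stimulated lipase, had 16878 and 16508 CPM in pancreas, against 195 and 114 CPM in stomach. Rnase1, a secreted ribonuclease, had 17109 and 20012 CPM in pancreas, against 278 and 292 CPM in stomach, and was 65.2-fold higher by CPM. Amy1, the salivary amylase, was looked at after its values were seen because its sequence is close to that of Amy2a. Amy1 had 1490 and 2086 CPM in pancreas, against 24.7 and 22.4 CPM in stomach, while its highest level elsewhere in the series was 87616 CPM in female parotid. Of its counts, 1956 and 1639 in pancreas, against 41 and 16 in stomach, came from 3 tags that lie 1 base from the main tag of Amy2a.

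Clps and Pla2g1b were the exceptions. Clps encodes colipase, the small cofactor that lets pancreatic lipase work on bile-coated fat. It had 35112 and 32100 CPM in pancreas, against 93379 and 74396 CPM in stomach, so both stomach libraries were above both pancreas libraries. By CPM it was 2.50-fold higher in stomach, while its TMM log2 fold was 1.91 ± 0.73 (adjusted p = 0.0833) and its fold with library totals was -1.35. It was not called by edgeR or by DESeq2 (adjusted p = 0.101), and its direction flips with the scaling. It was called higher by limma voom (adjusted p = 0.0251), with at least 10 CPM in 2 libraries (0.047) and with an offset for the G and C content of tags (0.0393). Pla2g1b encodes the phospholipase A2 of pancreatic juice. It had 613 and 575 CPM in pancreas, against 10214 and 29438 CPM in stomach, a level 33.4-fold higher in stomach by CPM. Its TMM log2 fold was -1.82 ± 0.67 in edgeR (adjusted p = 0.0735), and it was not called by DESeq2 (0.148) or limma voom (0.13). With library totals the log2 fold was -5.09 and it was called lower (1.92e-06). It was also called lower in the fit of all 14 libraries (0.0255) and with the tag GC offset (0.0453). With the female stomach library left out, the adjusted p was 0.0346 for Clps and 3.2e-05 for Pla2g1b. The tags shown above had 207082 and 140196 counts in stomach for Clps, and 21875 and 55176 for Pla2g1b, so 1 tag made up nearly the whole level of either gene there.

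Proteins of the zymogen granule and of the acinar cell followed the enzymes. Of 14 tested members, 13 were called higher and 1 lower, beside 3.19% and 7.65% of all genes tested. The median log2 fold of the members was 9.74 (6.49 with library totals). Sycn, syncollin, which binds the granule membrane, had 15879 and 13391 CPM in pancreas, against 90.6 and 53.1 CPM in stomach, a log2 fold of 10.89 (adjusted p = 2.12e-09). Gp2, the main membrane glycoprotein of the granule, had 2459 and 2348 CPM in pancreas, against 30.3 and 27.6 CPM in stomach. Zg16, a lectin of the granule, had 5632 and 5159 CPM in pancreas, against 42.9 and 141 CPM in stomach. Those 3 genes differed little between the pancreas libraries.

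The regenerating proteins, secreted lectins known to vary with the state of the acinar cell, differed more between the pancreas libraries. Reg1 had 5675 and 16788 CPM in pancreas, against 65.4 and 105 CPM in stomach, a log2 fold of 10.37. Reg2, chosen after its values were seen, had 10.8 and 949 CPM in pancreas and no count in stomach. Its mean over the pancreas libraries was at least 336-fold higher by CPM and at least 3571-fold higher by TMM against the floor of 3 counts per library (adjusted p = 5.11e-08). The male pancreas library carried nearly all of that mean, so these bounds do not hold for the female library. The 1 member called lower was Spink4, a trypsin inhibitor-like peptide known from goblet and gastric cells, with 1.08 and 0 CPM in pancreas, against 39.4 and 74.4 CPM in stomach (adjusted p = 0.0309). It was also chosen after its values were seen.

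Pancreatic enzymes were present in both stomach libraries at a small share of their pancreatic level. Among the 22 members of these 3 lists with at least 1000 CPM in pancreas, the stomach mean was at most 2.05% (Cela1) of the pancreas mean, apart from Clps at 250%. The median was 0.948%. Of all 38 tested members, 32 had a mean stomach level above every one of the 10 libraries of the other tissues. They include Clps, Pla2g1b, Spink4 and Tmed6, whose mean CPM was higher in stomach than in pancreas. They also include Cela3b and Serpini2, near the floor in stomach at 0.217 and 0.260 CPM. The same share over all genes tested was not counted. Less abundant members include genes far from that share, such as Pdia2, a protein disulfide isomerase of the acinar cell, at 43.5%, and Pnliprp2, a lipase, at 7.23%. No value here separates transcription in stomach from pancreatic tissue or RNA in the stomach samples, and they cannot be told apart.

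**Figure D4:**
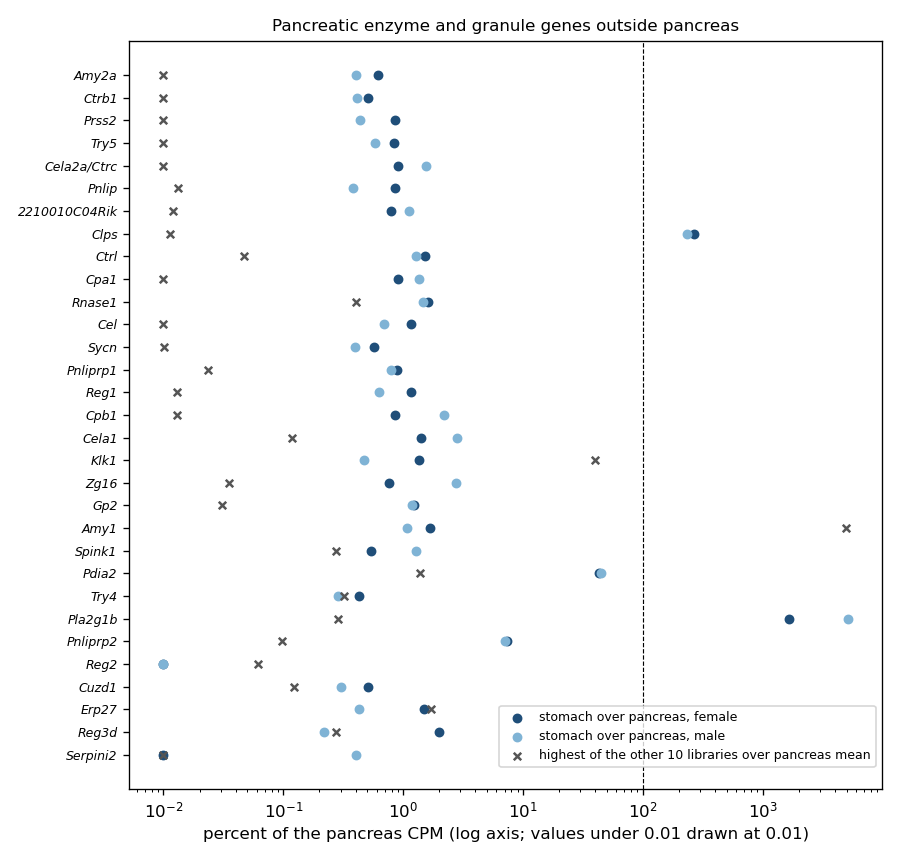
Level in stomach as a percent of the level in pancreas (log axis) for the more abundant tested members of the 3 enzyme and granule lists, as 1 point for each sex, with crosses for the highest level of the 10 other libraries over the pancreas mean. Most members lie close to the median of 0.948%, Clps and Pla2g1b lie right of the dashed line of equal CPM, and most crosses lie left of the stomach points.

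Of 6 tested transcription factors of the acinar cell, 3 were called higher in pancreas and 3 were not called. Their median log2 fold was 1.08 (-2.16 with library totals), and the count of calls changed with any single library left out. Of all genes tested, 3.19% were called higher. Rbpjl, the acinar partner of the factor Ptf1a, had 54.6 and 37.7 CPM in pancreas, against 3.47 and 4.16 CPM in stomach (adjusted p = 3.21e-07). Its cluster is titled Matrilin 4 in the files. Bhlha15, known as Mist1, which organises the secretory apparatus and is also made by gastric chief cells, had 56.8 and 37.3 CPM in pancreas, against 4.77 and 12.5 CPM in stomach. Its log2 fold was 5.64 (adjusted p = 5.42e-06). Both pancreas libraries stood above both stomach libraries for these 2 genes.

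Xbp1, a factor that expands the endoplasmic reticulum in secretory cells, had 257 and 281 CPM in pancreas, against 519 and 175 CPM in stomach. It was called higher by TMM (log2 fold 2.88, adjusted p = 0.00448), but its CPM overlapped and its log2 fold was -0.39 with library totals. Gata4, which also acts in the gastric epithelium, had 2.89 and 1.13 CPM in pancreas, against 51.1 and 41.1 CPM in stomach, and was not called (adjusted p = 0.377). Gata6, its relative, had 0.723 and 1.89 CPM in pancreas, against 10.8 and 41.6 CPM in stomach, and was not called either (adjusted p = 0.576). The defining acinar factors were hardly seen, and were looked at for that reason. Ptf1a had 5.06 and 1.89 CPM in pancreas, against 1.73 and 3.64 CPM in stomach, and Nr5a2 had no count in any of the 4 libraries. Neither passed the filter, and whether their transcripts gave tags outside the sense tags summed here was not tested.

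The endoplasmic reticulum is where secreted proteins are made and folded. Of 56 tested genes of its translocation and folding machinery, 18 were called higher and none lower, beside 3.19% of all genes called higher, with a median log2 fold of 1.63 (-1.62 with library totals). Their summed CPM was nevertheless lower in pancreas, at 3071 and 2750 CPM, against 5323 and 4650 CPM in stomach. The count of calls fell with either pancreas library left out and rose with either stomach library left out. Pdia2 had 715 and 555 CPM in pancreas, against 305 and 248 CPM in stomach, a log2 fold of 4.42 (adjusted p = 2.78e-05). P4hb, the general protein disulfide isomerase, had 464 and 501 CPM in pancreas, against 224 and 288 CPM in stomach, and Ssr4, a subunit of the translocon-associated complex, had 223 and 250 CPM in pancreas, against 195 and 140 CPM in stomach. These 3 genes were higher in both pancreas libraries on either scale, but none was called with library totals. Over the processing choices the log2 fold of P4hb ran from 0.89 to 13.26, against 4.16 in the main fit. That of Pdia2 ran from 1.17 to 4.63 and that of Ssr4 from 0.47 to 4.06. The reason for the wide range of P4hb was not tested. The disulfide oxidase Ero1b had 9.40 and 10.2 CPM in pancreas, against 3.47 and 1.04 CPM in stomach (adjusted p = 0.000139). Not every abundant member was called. Ddost, a subunit of the oligosaccharyltransferase, had 27.1 and 27.5 CPM in pancreas, against 358 and 205 CPM in stomach (adjusted p = 0.945), and Calr, the chaperone calreticulin, had 12.3 and 15.8 CPM in pancreas, against 147 and 383 CPM in stomach (adjusted p = 0.429).

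The 42 tested genes of vesicle coats and granule traffic had 6 called higher and none lower, beside 3.19% of all genes called higher, with a median log2 fold of 0.37 (-2.86 with library totals). Tmed11, a member of the p24 cargo receptors, had 181 and 168 CPM in pancreas, against 0.433 and 0 CPM in stomach (adjusted p = 6.57e-10). Its relatives Tmed6 and Tmed3 were called by TMM but not with library totals. Tmed6 had 66.2 and 96.9 CPM in pancreas, against 111 and 135 CPM in stomach, and its log2 fold of 2.68 turned to -0.62 with library totals. Tmed3 had 79.2 and 72 CPM in pancreas, against 169 and 65.5 CPM in stomach, with log2 folds of 2.60 and -0.66. Mcfd2, which escorts glycoproteins out of the endoplasmic reticulum, had 57.5 and 51.7 CPM in pancreas, against 54.2 and 31.2 CPM in stomach. For this list too, calls fell with either pancreas library left out and rose with either stomach library left out.

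Genes that supply amino acids showed 8 of 29 called higher and none lower, beside the same 3.19%, with a median log2 fold of 1.06 (-2.16 with library totals). Slc38a5, a glutamine carrier, had 10.5 and 18.9 CPM in pancreas, against 1.73 and 7.80 CPM in stomach, and its log2 fold was 4.90 (adjusted p = 0.000216). Asns, asparagine synthetase, had 94.7 and 70.5 CPM in pancreas, against 111 and 104 CPM in stomach, with a log2 fold of 2.83 that turned to -0.41 with library totals. The carrier genes Slc38a2 and Slc3a2 likewise turned, with log2 folds of 2.34 and 2.41 by TMM and of -0.88 and -0.85 with library totals. Calls of this list likewise fell with either pancreas library left out and rose with either stomach library left out.

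Endocrine markers of the islet were few. Of 28 genes of the islet list found in the files, 10 passed the filter. Of these, 3 were called higher and 1 lower, beside 3.19% and 7.65% of all genes tested. The count of calls rose with either stomach library left out. Gcg, glucagon, had 138 and 53.2 CPM in pancreas, against 6.93 and 2.60 CPM in stomach, a log2 fold of 7.44 (adjusted p = 1.02e-07). Iapp, the amyloid peptide co-released with insulin, had 78.8 and 80.3 CPM in pancreas, against 8.23 and 4.68 CPM in stomach, a log2 fold of 6.84 (adjusted p = 1.74e-07). Ero1b, given above, was the other. The insulin genes, looked at for their absence, were not tested. Ins1 had 0 and 1.51 CPM in pancreas, against 0.867 and 0 CPM in stomach, and Ins2 had 0.362 and 1.89 CPM in pancreas, with none in stomach. The counts of the defining markers of the beta cell were thus at or near 0 in both pancreas libraries, although those of Iapp were not. Whether insulin transcripts gave tags outside the sense tags summed here was not tested.

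Sst, somatostatin, made by delta cells of the islet and D cells of the stomach, had 2.89 and 1.51 CPM in pancreas, against 170 and 230 CPM in stomach (log2 fold -3.30, adjusted p = 0.00466). The granule proteins Chga and Chgb were not called. Chga, chromogranin A, had 3.98 and 1.89 CPM in pancreas, against 56.8 and 134 CPM in stomach (adjusted p = 0.144), and Chgb had 3.25 and 1.13 CPM in pancreas, against 19.5 and 32.8 CPM in stomach (adjusted p = 0.857).

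The epithelium of the stomach shares several markers of the pancreatic duct. Of 8 tested duct genes, none was called higher and 3 were called lower in pancreas, beside 7.65% of all genes called lower, with a median log2 fold of -2.01 (-5.04 with library totals). The count changed with any single library left out. It was 8 with library totals, beside 7724 of all 8218 genes tested. The summed level of the duct genes was 57.8 and 47.5 CPM in pancreas, against 3843 and 4022 CPM in stomach. Krt19, a keratin of simple epithelia, had 4.34 and 3.39 CPM in pancreas, against 2414 and 3134 CPM in stomach, a log2 fold of -6.26 ± 0.79 (adjusted p = 3.35e-07). Krt7, another such keratin, had 2.17 and 0.377 CPM in pancreas, against 100 and 167 CPM in stomach (adjusted p = 0.00682). Car2, a carbonic anhydrase of duct and parietal cells, had 1.08 and 0 CPM in pancreas, against 1078 and 276 CPM in stomach (adjusted p = 5.03e-06), and its tag holds 1 G or C among 16 bases. Muc1 and Spp1 were not called. Spp1, osteopontin, had 26 and 16.6 CPM in pancreas, against 78.9 and 56.7 CPM in stomach, and its log2 fold of 1.53 turned to -1.69 with library totals.

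**Figure D5:**
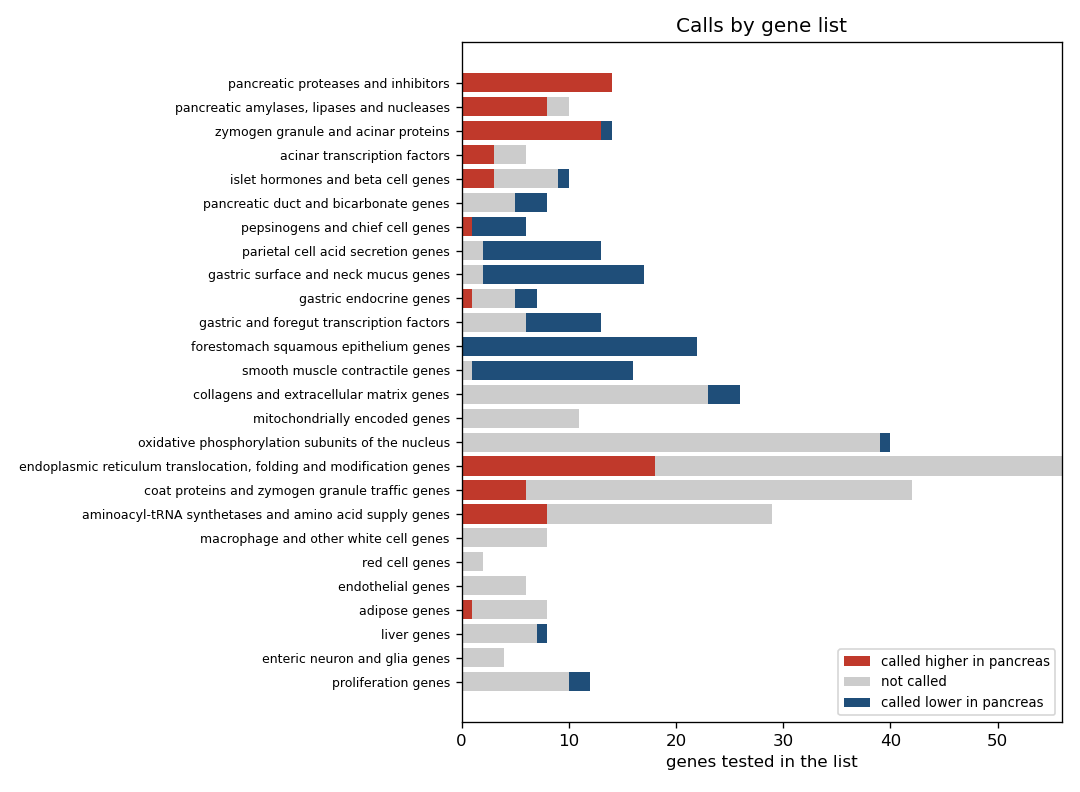
Number of tested genes of each list that were called higher in pancreas, called lower in pancreas or not called. All 14 proteases are called higher, all 22 forestomach genes lower, and 11 of 11 mitochondrially encoded genes are not called.

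On the stomach side, the chief cell gene Pgc was the most abundant of the named genes called lower. Pgc, pepsinogen C, had no count in pancreas, against 84495 and 234060 CPM in stomach. It was at least 143755-fold lower in pancreas by CPM and at least 15159-fold lower by TMM (adjusted p = 4.01e-10). Cblif, the intrinsic factor that carries vitamin B12 and that chief cells make in the mouse, had no count in pancreas, against 931 and 937 CPM in stomach, and was at least 843-fold lower in pancreas by CPM and at least 88.8-fold lower by TMM. Pga5, another pepsinogen, had 0 and 0.377 CPM in pancreas, against 34.2 and 83.7 CPM in stomach (adjusted p = 0.0077). Ctse, the aspartic protease cathepsin E, had 1.81 and 1.13 CPM in pancreas, against 1614 and 865 CPM in stomach (log2 fold -6.50, adjusted p = 6.1e-07). Of 6 tested genes of this list 5 were called lower, and Bhlha15, given above, was called higher. Among all genes tested the shares called lower and higher were 7.65% and 3.19%.

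Parietal cell genes of acid secretion were called lower in 11 of 13 tested cases, beside 7.65% of all genes tested. Their median log2 fold was -7.06, or -4.22 with genes absent from pancreas set to their floor. The count of calls fell with either pancreas library left out. Atp4a and Atp4b, the subunits of the proton pump, had no count in pancreas. In stomach Atp4a had 1168 and 3238 CPM and Atp4b had 2236 and 2564 CPM, which places pancreas at least 1988-fold and at least 2166-fold lower by CPM, and at least 210-fold and at least 228-fold lower by TMM. Clic6, a chloride channel protein of the parietal cell, had 3.98 and 1.89 CPM in pancreas, against 434 and 657 CPM in stomach (log2 fold -4.34, adjusted p = 0.000135). Kcnq1, the potassium channel that serves the pump, had 11.2 and 10.9 CPM in pancreas, against 108 and 37.5 CPM in stomach, and was not called (adjusted p = 0.752). Its log2 fold of 0.52 turned to -2.74 with library totals.

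Genes of the mucus-secreting cells were called lower in 15 of 17 tested cases, and fewer were called with either pancreas library left out. Of all genes tested, 7.65% were called lower. Gkn2, a gastrokine of the surface epithelium, had no count in pancreas, against 14897 and 25326 CPM in stomach. It was at least 18152-fold lower in pancreas by CPM and at least 1914-fold lower by TMM. Muc5ac, the gel-forming mucin of the gastric surface, had no count in pancreas, against 3012 and 3493 CPM in stomach. Mucl3 and Anxa10, an epithelial annexin, were also absent from pancreas. In stomach Mucl3 had 621 and 2982 CPM, and Anxa10 had 1187 and 475 CPM. Those 4 genes had adjusted p-values between 4.01e-10 and 8.11e-08.

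Tff2, the trefoil peptide that gastric neck cells secrete with mucus, was not called in the mucus list. It had 1772 and 1963 CPM in pancreas, against 6149 and 6565 CPM in stomach, so it was abundant in all 4 libraries and 3.40-fold higher in stomach by CPM. Its TMM log2 fold was 1.48 ± 0.64 in edgeR (adjusted p = 0.139) and turned to -1.80 with library totals, where it was called lower (0.0127). It was called higher with the tag GC offset (0.0326), but not by DESeq2 (0.272) or limma voom (0.104). The adjusted p was 0.028 without the female and 0.0449 without the male stomach library. Muc1, a membrane mucin of both organs' epithelia, had 17.4 and 19.6 CPM in pancreas, against 96.2 and 356 CPM in stomach, and was not called (adjusted p = 0.831).

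Ghrl, the hormone ghrelin of gastric endocrine cells, had no count in pancreas, against 2015 and 1969 CPM in stomach. It was at least 1798-fold lower in pancreas by CPM and at least 190-fold lower by TMM (adjusted p = 5.07e-09). Over all genes tested, 7.65% were called lower and 3.19% higher. Of the 7 tested gastric endocrine genes 2 were called lower (Ghrl and Sst) and 1 higher (Iapp). The count of calls rose without the female stomach library.

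Of 13 tested transcription factors of stomach and foregut, 7 were called lower and none higher, and none was called with either pancreas library left out. Among all genes tested, 7.65% were called lower and 3.19% higher. Klf4, an epithelial differentiation factor, had 5.06 and 1.13 CPM in pancreas, against 166 and 153 CPM in stomach (log2 fold -2.53, adjusted p = 0.0342). Barx1, which patterns the stomach from its mesenchyme, had 0 and 0.754 CPM in pancreas, against 104 and 121 CPM in stomach (adjusted p = 0.00167). Foxa1 and Sox21 had no count in pancreas. Foxa1, an endodermal factor, had 147 and 39.5 CPM in stomach and Sox21 had 65.0 and 26.5 CPM. Spdef, a factor of mucus cells, was not called (adjusted p = 0.957). It had 5.42 and 3.39 CPM in pancreas, against 35.5 and 39.5 CPM in stomach, and its log2 fold of 0.11 turned to -3.10 with library totals.

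Both stomach libraries held the squamous epithelium of the forestomach. All 22 tested genes of that list were called lower in pancreas, beside 7.65% of all genes tested. Their summed level was 14.1 and 6.41 CPM in pancreas, against 49078 and 23889 CPM in stomach. Fewer forestomach genes were called with either pancreas library left out. The cluster shared by Sprr2a1 and Sprr2b, small proline-rich proteins of the cornified envelope, made up most of the sum, with 3.25 and 0 CPM in pancreas, against 44262 and 17457 CPM in stomach (adjusted p = 8.01e-09). Lor, loricrin, Krt4, a keratin of squamous linings, and Krtdap, a keratinocyte peptide, had no count in pancreas. In stomach Lor had 808 and 1888 CPM, Krt4 had 1597 and 648 CPM, and Krtdap had 305 and 931 CPM. Fabp5, a fatty acid-binding protein of squamous epithelium, had 11.9 and 8.30 CPM in pancreas, against 7335 and 1175 CPM in stomach (log2 fold -5.50, adjusted p = 1.2e-05).

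Smooth muscle genes were also lower in pancreas, with 15 of 16 called, beside 7.65% of all genes called lower. Their summed level was 66.5 and 52.4 CPM in pancreas, against 16413 and 10234 CPM in stomach. Fewer smooth muscle genes were called with either pancreas library left out. Acta2, smooth muscle alpha actin, had 3.25 and 3.39 CPM in pancreas, against 2055 and 3491 CPM in stomach (log2 fold -6.46, adjusted p = 2.97e-07). Actg2, the enteric gamma actin, had 0.362 and 0 CPM in pancreas, against 6460 and 764 CPM in stomach (adjusted p = 3.44e-08). Tagln, transgelin, had 4.70 and 0 CPM in pancreas, against 1056 and 821 CPM in stomach. Csrp1, a cytoskeletal LIM protein, had 41.6 and 38.8 CPM in pancreas, against 3845 and 377 CPM in stomach, and its call rested on 1 library. Its log2 fold of -2.48 (adjusted p = 0.0321) became 0.061 without the female stomach library, and its tag, shown above, holds 3 G or C among 16 bases.

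Of 26 tested matrix genes of connective tissue, 3 were called lower and none higher, which is close to the 7.65% of all genes called lower, with a median log2 fold of -1.20 (-4.35 with library totals). The count of calls changed with any single library left out. With library totals all 26 were called, as were 7724 of all 8218 genes tested. Col6a1, a collagen VI chain, had 3.98 and 4.53 CPM in pancreas, against 166 and 269 CPM in stomach (adjusted p = 0.0314), and Lamc1, a laminin chain, had 7.95 and 3.02 CPM in pancreas, against 205 and 240 CPM in stomach (adjusted p = 0.0491). Col3a1, the fibrillar collagen of soft tissue, had 25.7 and 14.7 CPM in pancreas, against 713 and 417 CPM in stomach, and was not called (adjusted p = 0.113).

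Other genes that were abundant in stomach fell outside the lists. A UniGene cluster titled caspase 6 in the files had 0.723 and 0 CPM in pancreas, against 49302 and 68801 CPM in stomach (adjusted p = 4.01e-10). A single tag, assigned through an expressed sequence tag of that cluster, held 113706 and 132105 of its counts in stomach and none in pancreas, so the title may not name the transcript that was counted. Chia1, an acidic chitinase that mouse chief cells secrete, had 7.23 and 0 CPM in pancreas, against 11050 and 14469 CPM in stomach, with a log2 fold of -8.67 (adjusted p = 1.74e-07).

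The mitochondrial genes took a far smaller share of the counts in pancreas, but none was called. The 11 genes tested from the mitochondrial genome summed to 8324 and 7464 CPM in pancreas, against 118790 and 44407 CPM in stomach. Their median log2 fold was 0.18 by TMM and -3.07 with library totals, beside -0.33 and -3.53 for all genes tested. At an unadjusted p under 0.05 edgeR had 0 of them, beside 1945 of all 8218 genes tested. DESeq2 and limma voom called 0 of the 11. With library totals all 11 were called, as were 7724 of all 8218 genes tested. Without the female stomach library the absence of calls among the mitochondrial genes did not hold. Of those at high level in all 4 libraries, mt-Co2, a subunit of cytochrome oxidase, had 1727 and 2243 CPM in pancreas, against 46110 and 10098 CPM in stomach (adjusted p = 0.713). The subunit gene mt-Co1 had 2147 and 1907 CPM in pancreas, against 24028 and 6118 CPM in stomach, and its log2 fold of 0.34 turned to -2.92 with library totals. Of 40 nuclear genes for the same respiratory machinery 1 was called lower, beside 7.65% of all genes tested. The count was 39 with library totals, beside 7724 of all 8218 genes tested. It was 0 with limma voom or with sex as a block, and it changed with any single library left out. At an unadjusted p under 0.05 edgeR had 7 of the 40, beside 1945 of all 8218 genes tested. The gene called was Uqcrc2 of the cytochrome bc1 complex, with 3.98 and 2.26 CPM in pancreas, against 93.2 and 239 CPM in stomach (adjusted p = 0.0339).

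Genes of other cell types that either organ could hold were mostly not called. Among 8 genes of white cells, 2 of red cells, 6 of endothelium and 4 of enteric neurons and glia, edgeR, DESeq2 and limma voom called 0. At an unadjusted p under 0.05 edgeR had 1 each of the white cell, red cell and enteric genes and 0 of the endothelial ones. Among all 8218 genes tested the number was 1945. With library totals all members of these lists were called, as were 7724 of all 8218 genes tested. Leaving out the male stomach library changed the counts of the white cell, red cell and enteric genes. Leaving out the female one changed those of the white and red cell genes. Of 8 adipose genes, Cfd, the adipocyte protease adipsin, was called higher, with 42.3 and 35.1 CPM in pancreas, against 120 and 28.1 CPM in stomach (adjusted p = 0.0386). Its CPM overlapped and its log2 fold of 2.28 turned to -0.97 with library totals. Of 8 liver genes, Apoa1, an apolipoprotein of plasma lipid carriers, was called lower, with 11.6 and 4.15 CPM in pancreas, against 1825 and 1644 CPM in stomach (log2 fold -4.62, adjusted p = 2.89e-05). Alb, albumin, had 28.9 and 47.5 CPM in pancreas, against 776 and 117 CPM in stomach, and was not called (adjusted p = 0.887). Its main tag holds 0 G or C among 16 bases and is a run of A after its first such base. That tag made up 99.4% and 58.9% of the Alb counts in stomach. Whether it counts albumin transcripts only was not tested. Neither the adipose nor the liver list had a call with either pancreas library left out. Calls of both lists rose with either stomach library left out. Of 12 proliferation genes 2 were called lower. This count rose without the female stomach library and fell with either pancreas library left out. For the adipose, liver and proliferation counts of the main fit, the shares over all genes tested were 3.19% called higher and 7.65% called lower. Hmgb2, a chromatin protein, had 1.08 and 0 CPM in pancreas, against 39.4 and 55.1 CPM in stomach (adjusted p = 0.0464). Ccnb1, a mitotic cyclin, had no count in pancreas, against 9.97 and 17.7 CPM in stomach (adjusted p = 0.0403).

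The promoters of genes that moved together were read from the RefSeq table of GRCm38.p6, which gives 300 bases for each, from 250 before the start site to 50 after its beginning. Ctrb1 (chr8:111690961-111691260, minus strand) and Cela1 (chr15:100687871-100688170, minus strand) are shown for the pancreatic enzymes and Gkn2 (chr6:87373115-87373414, plus strand) for the gastric mucosa. In Ctrb1 and Cela1, capitals mark CANNTG, the E box that the Ptf1a complex is known to bind. They also mark TTTCCC, the motif that its Rbpjl subunit binds. In Gkn2 they mark AGATAA, a motif of the GATA factors. This motif is also in the Cela1 sequence shown, where it was not marked.
Ctrb1: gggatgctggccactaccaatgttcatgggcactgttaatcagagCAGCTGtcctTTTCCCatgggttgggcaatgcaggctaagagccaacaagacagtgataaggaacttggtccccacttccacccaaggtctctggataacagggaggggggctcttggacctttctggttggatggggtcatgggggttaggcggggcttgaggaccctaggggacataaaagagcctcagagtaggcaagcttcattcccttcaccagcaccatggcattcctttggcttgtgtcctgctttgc
Cela1: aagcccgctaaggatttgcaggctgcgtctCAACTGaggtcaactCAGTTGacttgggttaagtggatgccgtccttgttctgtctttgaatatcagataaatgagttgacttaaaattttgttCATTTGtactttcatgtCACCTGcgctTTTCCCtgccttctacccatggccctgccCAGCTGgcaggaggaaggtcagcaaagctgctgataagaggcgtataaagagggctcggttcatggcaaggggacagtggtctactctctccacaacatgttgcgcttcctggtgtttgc
Gkn2: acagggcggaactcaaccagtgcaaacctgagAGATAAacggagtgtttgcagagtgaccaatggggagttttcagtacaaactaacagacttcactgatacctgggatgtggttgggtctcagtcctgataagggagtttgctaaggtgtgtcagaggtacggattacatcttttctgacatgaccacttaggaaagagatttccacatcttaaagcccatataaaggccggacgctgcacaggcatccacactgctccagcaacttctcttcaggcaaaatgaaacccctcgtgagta
In Ctrb1, CANNTG began at -205 and TTTCCC at -195 from the start site. In Cela1, TTTCCC began at -99 and CANNTG at -220, -205, -126, -109 and -70, and in Gkn2 AGATAA began at -218. Motifs were searched on both strands, and overlaps between motifs were allowed. TTTCCC was in 9 of 28 promoters (32.1%) of pancreatic enzyme and granule genes called higher, and in 25.2% of all 32851 promoters. CANNTG was in 25 of the 28 (89.3%), against 72.3% of all, AGATAA in 10 (35.7%), against 11.2%, and TATAAA, the TATA box, in 11 (39.3%), against 13.6%. Among 20 promoters of chief, parietal and mucus cell genes called lower, TTTCCC was in 3 (15%), CANNTG in 15 (75%), AGATAA in 5 (25%) and TATAAA in 5 (25%). These are matches of letters, described without a test.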

How the data were processed

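The deposited values are raw counts of distinct 20-base tags per library, without normalization, and the authors gave each tag a gene and a class code. Per the labels, the libraries were made with DpnII and MmeI. The aligner, the genome build, the UniGene build and the legend of the class codes are among the items not given in the sources used here. Codes 1 to 4 were read as sense tags, which is an assumption, and their counts were summed per UniGene cluster or mitochondrial gene. Of the 22221 genes, 13721 have a symbol from an accession or title and 38.3% have a title only, which held 6.57% of the gene counts of the 4 libraries.

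The gene test was edgeR 4.0.16 (limma 3.58.1, R 4.3.3) with TMM factors, filterByExpr by organ at a minimum count of 10, and the quasi-likelihood F test, with Benjamini-Hochberg adjustment over the 8218 genes tested. A call was an adjusted p below 0.05 with at least a 2-fold difference. The TMM factors were 0.368 and 0.284 in pancreas, against 3.09 and 3.10 in stomach. The female and male library of an organ served as its 2 replicates. Lower bounds of folds set a gene without counts to 3 counts per library, and the fitted fold of such a gene depends on the prior count. Named genes are the 10 highest in each direction among called genes whose libraries do not overlap, up to 4 called and 2 uncalled genes of each of 26 lists, and the 6 uncalled genes highest in all libraries. Not all of them are described, and 1 gene is not reported here by name. Members and lists were chosen with earlier results of these data known, and no list was tested as a set. In simulated data 200 genes were changed and all others were equal between the organs, and 6638 genes passed the filter. The test recovered 0% of genes changed 2-fold or 4-fold, 40% of those changed 8-fold and 84% of those changed 16-fold. Changed genes lost at the filter counted as not recovered, and 4 of the 66 calls were of unchanged genes. The real comparison had 891 calls, so these rates do not carry over to it. DESeq2 1.42.0 was an alternative, and tables and figures were made in Python 3.11.15 (numpy 2.4.6, pandas 2.3.3, matplotlib 3.10.9, scipy 1.17.1).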

Additional observations from a re-analysis of the deposited data

Results flagged for a closer look

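Csrp1 moved in 1 pair of libraries only. Its log2 fold of pancreas over stomach was -3.48 between the female libraries and 0.14 between the male libraries, and the difference between the pairs was not tested.

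Tags read as lying on the reverse strand were outside the gene test and made up 2.92% and 2.84% of the counts in pancreas, against 2.90% and 4.19% in stomach. Tags without any assignment made up 4.01% and 5.23% of the counts in pancreas, against 18.6% and 4.18% in stomach, so that the female stomach library had the highest share. The exact 95% intervals of these shares, from the Clopper-Pearson method, are narrow at this depth. They run from 18.5% to 18.6% in female stomach and from 4.15% to 4.20% in male stomach. The most abundant such tag had 9699 and 19691 counts in pancreas, against 143559 and 12198 counts in stomach. Of the distinct tags without assignment in female stomach, 118546 of 148907 were seen once.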

How the results depend on the processing

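With library totals in place of TMM, 7724 genes were called, 77 higher and 7647 lower in pancreas. A fit of all 14 libraries with tissue and sex called 1711 (574 and 1137), and an offset for tag GC, chosen after seeing the data, called 1497 (510 and 987). A test against a fold of 2 called 548. DESeq2's Wald test called 390 genes lower and the most abundant tag of each gene alone gave 414. With sex as a replicate block, 660 genes were called (213 and 447), of which 652 were among the main calls; the labels give no pairing beyond sex. Leaving out 1 library gave 127 to 2930 calls, 87 to 1299 higher and 40 to 1631 lower. The cause was not tested.

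Of the genes named, 14 changed sign with library totals: Clps to -1.35, Xbp1 to -0.39, Spp1 to -1.69, Kcnq1 to -2.74, Tff2 to -1.80, Spdef to -3.10, mt-Co1 to -2.92, mt-Atp6 to -2.90, Tmed6 to -0.62, Tmed3 to -0.66, Asns to -0.41, Slc38a2 to -0.88, Slc3a2 to -0.85 and Cfd to -0.97. Without the female stomach library, Csrp1 became 0.061 and Alb 1.72, and without 1 library they ran from -3.35 to 0.061 and from -1.08 to 1.72. With DESeq2's size factors all 94 kept their direction and call, and 26 and 30 lost their call without the female and the male pancreas library. Both sets hold Xbp1, Sst, Krt7, Pga5, Clic6, Klf4, Barx1, Foxa1, Sox21, Csrp1, Lamc1, Col6a1, Col5a1, Ssr4, Tmed6, Tmed3, Mcfd2, Asns, Slc38a2, Slc3a2, Cfd, Apoa1, Hmgb2, Ccnb1, Uqcrc2 and Spink4, and the male one also Car2, Tagln, P4hb and Slc38a5. Genes with few counts in pancreas limit the lower side, since 3 counts there are above 1 CPM.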
